A study of Mus musculus with 141 samples.

Results

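Iron handling was followed through 10 genes of the 24423 listed in the files: the hepcidin genes Hamp and Hamp2, the hepcidin regulators Hfe2 and Tfr2, the carrier transferrin (listed as Trf, with Tf as a synonym in RefSeq), the uptake receptor Tfrc, the exporter Slc40a1 and its partner Cp, and the ferritin subunits Fth1 and Ftl1. Of these, 9 were found by symbol and 1 by synonym. RNA-seq was available for liver, lung and kidney of 47 Collaborative Cross (CC) strains, which are recombinant inbred mouse strains from a shared set of founders, giving 1 library of each whole tissue per strain. Each strain was represented by 1 male of 8 to 12 weeks, fed the NTP 2000 diet and kept in a clean-air chamber 6 hours a day on weekdays for 2 weeks before nembutal anaesthesia, so no treatment group or healthy control is contrasted here, and strain and mouse cannot be told apart. Because whole tissue was sequenced, fewer cells of a type and less RNA per cell cannot be told apart either.

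Iron circulates bound to transferrin and enters cells through transferrin receptor 1 (Tfrc). It leaves them through ferroportin (Slc40a1), helped by the ferroxidase ceruloplasmin (Cp), and the excess is held inside ferritin shells of heavy (Fth1) and light (Ftl1) chains. The liver hormone hepcidin binds ferroportin and removes it from the cell surface, and its transcription in hepatocytes rises with BMP signals, through the co-receptor hemojuvelin (Hfe2) and transferrin receptor 2 (Tfr2), and with inflammatory signals through STAT3.

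The hepcidin genes lie close together on the minus strand of chromosome 7 in NCBIM37 (mm9), Hamp at chr7:31727390-31729036 and Hamp2 at chr7:31707391-31709200. Their transcripts were identical at 370 of 392 aligned bases (94.4%) and their coding sequences at 233 of 249 (93.6%). Windows of 300 bases across their starts, which take in the first bases of the transcripts, were identical at 267 of 285 (93.7%). The 75 bases coding for the mature peptide are shown because they tell the genes apart, with the 14 positions at which they differ in capitals (Hamp chr7:31727499-31727573, Hamp2 chr7:31707530-31707604, minus strand).
Hamp: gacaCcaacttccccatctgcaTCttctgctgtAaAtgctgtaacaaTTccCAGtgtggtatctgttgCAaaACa
Hamp2: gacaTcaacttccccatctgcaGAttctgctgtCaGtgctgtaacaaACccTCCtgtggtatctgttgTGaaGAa

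A stretch of 100 bases of each promoter is shown because 2 motifs tied to hepcidin transcription were searched there on both strands: GGCGCC, the core of the BMP response element, and TTCTTGGAA, a STAT site, each in capitals where found (Hamp chr7:31729087-31729186, Hamp2 chr7:31709236-31709335, minus strand).
Hamp: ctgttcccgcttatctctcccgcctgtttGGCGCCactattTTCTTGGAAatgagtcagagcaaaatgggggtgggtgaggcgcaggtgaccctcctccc
Hamp2: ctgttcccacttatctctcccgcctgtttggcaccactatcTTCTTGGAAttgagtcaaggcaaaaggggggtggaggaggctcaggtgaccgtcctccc

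TTCTTGGAA began 109 bases before the start of Hamp and 94 before that of Hamp2, and was present in 0.417% of 32851 RefSeq promoters of 300 bases (GRCm38.p6). GGCGCC began 121 bases before the start of Hamp and was not among the letters of the Hamp2 window. It was present in 11.9% of those promoters. A match is a description of letters and was not tied to the levels below.

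The libraries held 1738046 to 42158454 expected counts each (median 9043226), and much of that depth went to entries unrelated to iron. Rn45s, the ribosomal RNA precursor, and Lars2, whose level followed it (Spearman rho 0.93 to 0.96 within a tissue), together took 0.34% to 90.3% of liver counts, 1.02% to 90.5% of lung counts and 0.206% to 83.0% of kidney counts, and the liver library of CC033, of 5058429 counts in all, held the fewest outside them in liver, 491533. TPM, an abundance per transcript length scaled to 1 fixed total in each library, is therefore given for comparing genes, and CPM, counts scaled to library size with TMM factors, for comparing strains. Tissue identity held for the markers chosen: summed CPM of 7 hepatocyte markers was 59070 to 178139 in liver and at most 622 in lung and 3794 in kidney, that of 5 lung epithelium markers was 7007 to 16163 in lung and at most 194 elsewhere, and that of 5 kidney tubule markers was 11108 to 37076 in kidney and at most 1010 elsewhere. Single liver libraries also held up to 2626 CPM of 10 pancreas markers and 2048 CPM of 5 skeletal muscle markers, beside liver medians of 2.17 and 7.79.

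**Figure D1:**
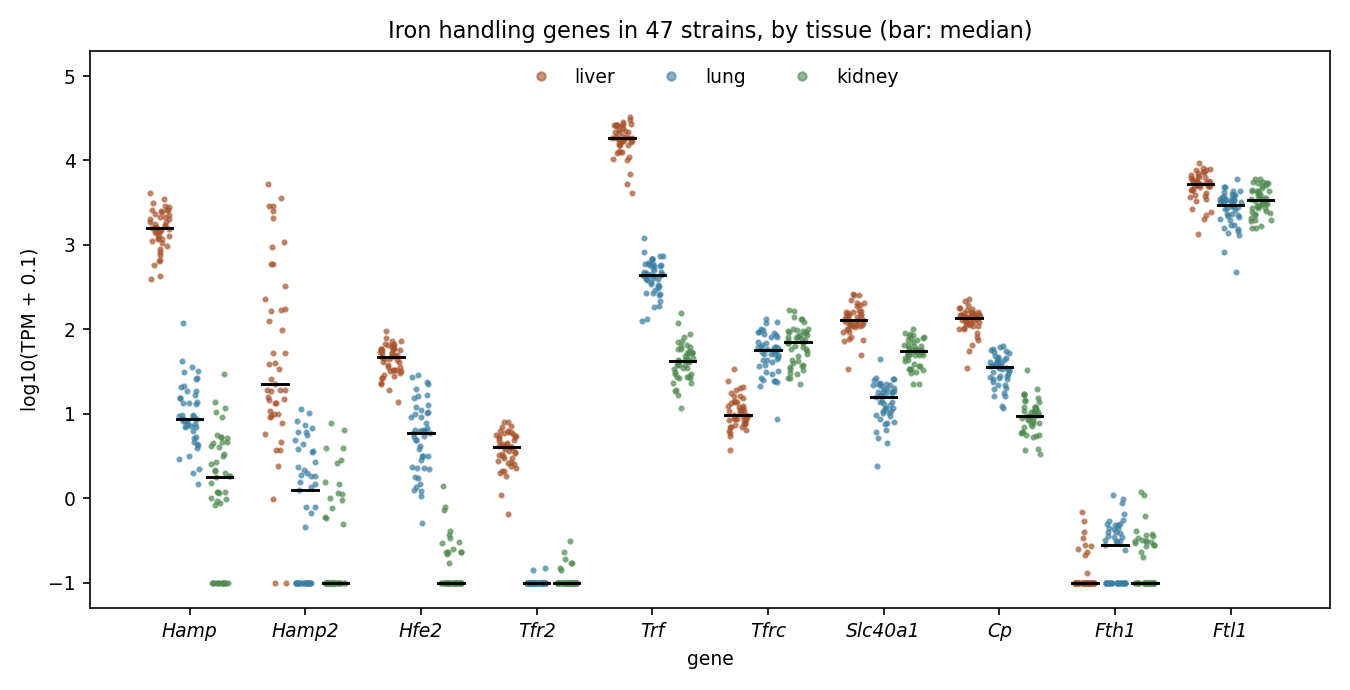
Level of each iron gene, as log10(TPM + 0.1), in the 47 liver (brown), 47 lung (blue) and 47 kidney (green) libraries, with a bar at each median. Hamp, Tfr2 and Trf in liver lie above every lung and kidney library, the median of Tfrc is lowest in liver, and Fth1 is near the floor in all 3 tissues.

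Hepcidin was a liver transcript. Hamp, the main hepcidin gene, was at 395 TPM in the lowest liver library (CC039), 1579 in the median one and 4106 in the highest (CC044). In lung it ranged from 1.37 to 117 TPM (median 8.55) and in kidney from 0 to 29.5 TPM (median 1.69), with 3 counts or fewer in 30 of 47 kidney libraries. The liver values did not overlap with either, and Hamp was higher in liver by 8.62 ± 0.12 (log2 fold change ± SE, limma-voom, q = 2.5e-83) against lung and by 10.52 ± 0.16 (q = 2.73e-81) against kidney. The size of the kidney difference depends on the small count added to the 13 kidney libraries at 0. Hamp2 was at 0 to 5207 TPM in liver (median 22.5), 0 to 11.4 TPM in lung (median 1.16) and 0 to 7.69 TPM in kidney (median 0). It was higher in liver in 45 of 47 strains against lung and in 45 of 47 against kidney. Its fitted differences were 7.60 ± 0.48 (q = 1.68e-28) and 7.85 ± 0.48 (q = 4.27e-29), values that depend on the small count added to libraries at 0. Lung and kidney did not differ detectably in Hamp2 (0.25 ± 0.49, q = 0.627), but edgeR put lung higher by 1.16 (q = 0.0691) and a fit on log2(TPM + 0.1) by 1.47 (q = 0.00485).

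Called members are to be read against a wide background of tissue differences. A gene was called where q was at most 0.1 and the log2 fold change at least 1 in size, among 12127 genes tested, and 9 of the 10 members were tested, Fth1 being under the filter. Against lung, 8 of 9 were higher in liver and 0 higher in lung, beside 23.9% of all tested genes higher in liver and 31% higher in lung. Against kidney, 8 were higher in liver and 1 (Tfrc) higher in kidney, beside 15.6% and 20.8% of all tested genes. Between lung and kidney, 4 were higher in lung and 1 (Slc40a1) in kidney, beside 25.5% and 20.6%. The median log2 fold change of the 9 was 4.64, 6.99 and 0.25 in these comparisons, and that of all tested genes -0.06, -0.00 and 0.04.

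**Figure D2:**
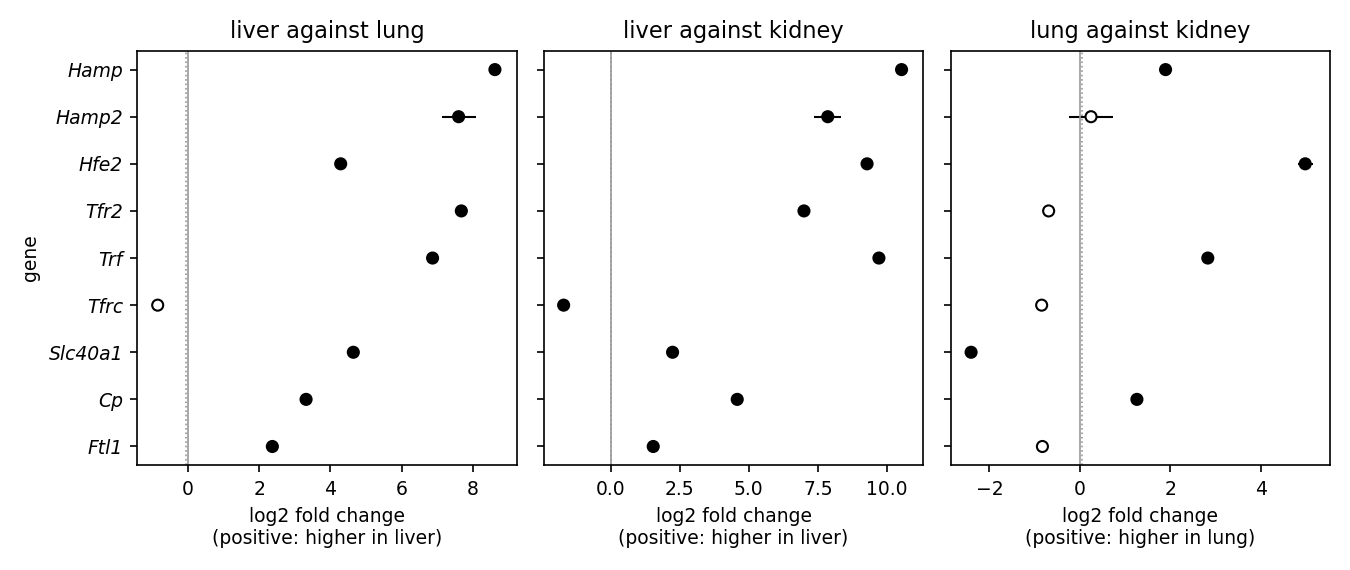
Log2 fold changes of the 9 tested members between tissues from limma-voom over the 3 tissues of 47 strains, with SE as bars, filled where called, and a dotted line at the median of all tested genes. Members lie right of 0 in the liver comparisons except Tfrc, at -0.86 and -1.70.

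Hfe2 and Tfr2, the hepcidin regulators among the members, were also highest in liver. Hfe2, the BMP co-receptor hemojuvelin, was at 13.6 to 95.1 TPM in liver (median 47.3), 0.41 to 28.9 TPM in lung (median 5.80) and 0 to 1.28 TPM in kidney, where 32 of 47 libraries had no count. It was higher in liver by 4.29 ± 0.12 against lung (q = 2.27e-57) and by 9.27 ± 0.17 against kidney (q = 3.12e-73), and higher in lung than in kidney by 4.99 ± 0.16 (q = 2.98e-51). The differences from kidney depend on the small count added to libraries at 0. Tfr2, the sensor of transferrin saturation, was at 0.55 to 7.92 TPM in liver (median 3.88), and all 47 lung libraries together held 2 counts and all 47 kidney libraries 8, against 2888 in liver. It was called higher in liver in both comparisons. Of the 19 other genes listed for hepcidin control, 15 were tested: 4 were called higher in liver and 6 higher in lung, 5 in liver and 3 in kidney, and 7 in lung and 0 in kidney. In the same order, the shares of all tested genes were 23.9% and 31%, 15.6% and 20.8%, and 25.5% and 20.6%. Tmprss6, the protease that cleaves hemojuvelin, was at a median of 287 TPM in liver, 0.80 in lung and 0.41 in kidney (log2 fold changes 9.74 ± 0.09 and 10.12 ± 0.09). Bmp6, the BMP ligand that rises with iron, ran the other way, at 3.18 TPM in liver and 96.2 in lung (-3.46 ± 0.08), as did the inhibitory Smad6, at 4.22 and 100 TPM (-3.21 ± 0.09). The list's median log2 fold change was -0.56 against lung and -0.07 against kidney.

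Transferrin was among the most abundant liver transcripts, ranked 5 by median TPM. Trf was at 4101 (CC033) to 32507 TPM (CC010) in liver (median 18447), 124 to 1217 TPM in lung (median 444) and 11.6 to 157 TPM in kidney (median 42). Liver did not overlap with either tissue, and lung exceeded kidney in 47 of 47 strains. The differences were 6.87 ± 0.09 (liver against lung, q = 6.34e-89), 9.70 ± 0.09 (liver against kidney, q = 6.2e-101) and 2.83 ± 0.09 (lung against kidney, q = 4.19e-53). Its receptor ran opposite. Tfrc was at 3.66 to 34.1 TPM in liver (median 9.43), 8.63 to 134 TPM in lung (median 56.0) and 22.4 to 171 TPM in kidney (median 70.7). Kidney exceeded liver in 47 of 47 strains by TPM and in 46 of 47 by CPM, and the difference was called (-1.70 ± 0.08, q = 5.61e-36). Lung exceeded liver in 46 of 47 strains by TPM and in 44 of 47 by CPM, but the TMM difference of -0.86 ± 0.08 (q = 8.43e-17) missed the fold threshold. It passed with DESeq2 size factors (-1.10), total counts (-2.22) and log2(TPM + 1) (-2.22). The median of all tested genes was -0.30, -1.44 and -1.21 under those scalings, against -0.06 with TMM.

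The exporter pair and the ferritin light chain were expressed in all 3 tissues. Slc40a1 was at 33.5 to 262 TPM in liver (median 128), 2.30 to 44.9 TPM in lung (median 15.8) and 22.3 to 100 TPM in kidney (median 54.5). All 3 comparisons were called: liver above lung by 4.64 ± 0.07 (q = 3.38e-81), liver above kidney by 2.24 ± 0.07 (q = 3.79e-53) and lung below kidney at -2.40 ± 0.07 (q = 4.02e-55). Macrophage markers moved with it in part: their summed CPM over 10 genes was 292 to 1565 in liver, 149 to 364 in lung and 36.5 to 193 in kidney, so by their medians (231 and 61.9) the order of lung and kidney was the reverse of that of Slc40a1. Cp was at 34.3 to 229 TPM in liver (median 135), 11.6 to 62.8 TPM in lung (median 35.4) and 3.22 to 33.2 TPM in kidney (median 9.32). It fell in that order in the fits too (3.32 ± 0.06, 4.58 ± 0.06 and 1.26 ± 0.06, each called).

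Ftl1 was at 1332 to 9305 TPM in liver (median 5288), 472 to 5965 TPM in lung (median 2968) and 1569 to 6098 TPM in kidney (median 3445), and ranked between 14 and 18 by median TPM in each tissue. The ranges overlapped widely in TPM, where liver was higher in 43 of 47 strains against lung and in 40 of 47 against kidney. In CPM Ftl1 was at 1835 to 4916 in liver, 260 to 1061 in lung and 446 to 1992 in kidney. By CPM liver was higher in 47 of 47 strains against each. Liver was called higher by 2.37 ± 0.06 against lung and 1.54 ± 0.06 against kidney on the TMM scale. On log2(TPM + 1) the differences were 0.89 and 0.58, under the fold threshold, beside medians of all tested genes of -1.21 and -0.72. By total counts they were 1.01 and 0.60, beside -1.44 and -0.95. Only 8.71% of the 919 windows of 50 bases (the read length) in the Ftl1 transcript occurred once in the genome, and 91.3% occurred in further places, so reads of Ftl1 and of its copies are hard to tell apart. Fth1 was listed at or near 0 in every library, with at most 2 counts in liver, 4 in lung and 4 in kidney, although 73.7% of its windows occurred once. The files list it with 2 transcripts, and the cause of the low counts was not tested. Its level is not interpreted here.

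Iron regulatory proteins bind stem loops named iron responsive elements in several of these messages, at the start of ferritin and ferroportin mRNA and at the end of Tfrc mRNA. A script found the loop pattern, with the bulged C and the CAGTGN loop in capitals, in Fth1 (5′ UTR, chr19:10057222-10057250, plus strand), in Ftl1 (5′ UTR, chr7:52715149-52715177, minus strand), in Slc40a1 (5′ UTR, chr1:45982310-45982338, minus strand) and at 4 places in the 3′ UTR of Tfrc, the first at chr16:32631305-32631333 on the plus strand (NCBIM37). They are shown because RNA levels do not report the translation or mRNA decay that these elements control in the cell.
Fth1: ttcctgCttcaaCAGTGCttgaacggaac
Ftl1: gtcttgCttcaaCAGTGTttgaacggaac
Slc40a1: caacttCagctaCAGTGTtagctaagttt
Tfrc: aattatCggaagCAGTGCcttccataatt

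Other iron genes were taken as listed groups, and their counts are to be read beside the shares of all tested genes. These shares were 23.9% higher in liver and 31% in lung, 15.6% in liver and 20.8% in kidney, and 25.5% in lung and 20.6% in kidney. Of 18 in iron transport and reduction, 13 were tested: 2 were called higher in liver and 6 higher in lung, 4 in liver and 2 in kidney, and 6 in lung and 1 in kidney. The leading ones were lactoferrin Ltf (0.08 TPM in liver, 33 in lung, log2 fold change -6.53 ± 0.22), the reductase Cybrd1 (0.09 and 10.9 TPM, -4.93 ± 0.12) and the reductase Steap4 (101 TPM in liver, 3.91 in kidney, 5.54 ± 0.10). Of 8 in iron sensing and storage, 6 were tested, with 3 higher in liver than lung, 0 called between liver and kidney, and 2 higher in kidney than lung. Aco1, iron regulatory protein 1, led both, at 133 TPM in liver, 57 in lung and 390 in kidney (2.86 ± 0.04 for liver against lung, -3.31 ± 0.04 for lung against kidney). Ireb2, iron regulatory protein 2, was called higher in liver than lung (1.26 ± 0.05), and its sign turned under other scalings (-0.11 by total counts, -0.22 on log2(TPM + 1)). The median of all tested genes was -1.44 and -1.21 under those scalings. Of 18 in heme handling, 13 were tested: 8 higher in liver and 0 in lung, 7 higher in liver and 1 in kidney, and 2 higher in lung and 5 in kidney. Hpx, which binds free heme, was at 4316 TPM in liver, 7.47 in lung and 3.50 in kidney. The 4 genes of filtered protein uptake were all called higher in kidney than in liver and than in lung, led by Cubn (381 TPM in kidney, 0.36 in liver, -8.76 ± 0.11) and Lrp2 (1378 TPM in kidney, 1.54 in liver, -8.54 ± 0.12), the receptors through which filtered transferrin is reclaimed.

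The balance of the 2 hepcidin genes ranged widely over strains. Hamp2 made up 0% of the hepcidin counts in the liver of CC001 (0 of 1902 counts, exact binomial 95% interval up to 0.194%) and CC062. Its share was 68.6% in CC003 (exact binomial 95% interval 67.5% to 69.7%, counting error only). The median share was 1.54%, and 24 of 47 strains were under 2%, 13 between 2% and 20%, 2 between 20% and 50% and 8 over 50%. The widest gap in the order lay between CC032 at 15.7% and CC059 at 30.2%. CC013 followed at 44.2% and CC038 at 57.8%, and the other strains over 50% were CC002 (58.1%), CC033 (59.2%), CC015 (59.7%), CC021 (63.4%), CC025 (64.1%), CC007 (67.6%) and CC003. In TPM, which divides by the length of each transcript, the highest share was 66.8% and again 8 strains were over 50%.

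**Figure D3:**
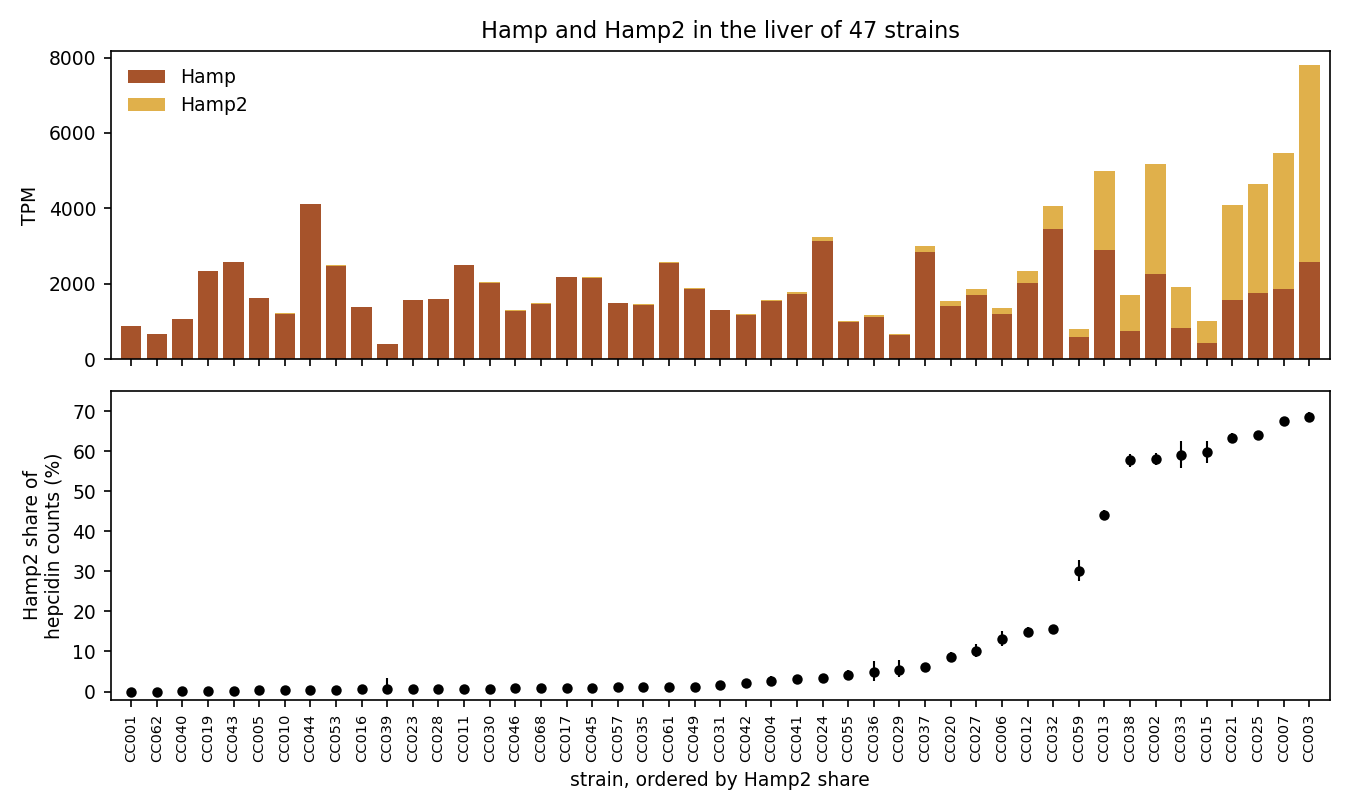
Top, TPM of Hamp (brown) and Hamp2 (yellow), stacked, in the liver of each of 47 strains, ordered by the share of Hamp2. Bottom, that share of the hepcidin counts in percent with its exact 95% interval, from 0% in CC001 to 68.6% in CC003.

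Strains with a share over 50% had Hamp levels both above and below the median of 372 CPM. In CC033, CC003 and CC002 Hamp was at 573, 459 and 416 CPM, and in CC007, CC025, CC038, CC021 and CC015 it was at 355, 336, 314, 305 and 94 CPM. Hamp2 in these strains ranged from 140 CPM in CC015 to 1005 CPM in CC003, with 830 CPM in CC033, beside a median of 6.71 CPM over all strains. CC044, with the highest Hamp level (745 CPM), had 2.59 CPM of Hamp2. In TPM, as stacked in the bars, the order of strains differs, since CC007 and CC025 lie above the median of Hamp (1872 and 1757 against 1579 TPM) and CC033 below it (817 TPM). Over 47 strains the correlation of Hamp and Hamp2 in liver was r = 0.22 (permutation p = 0.138, rho = 0.18, p = 0.226, two-sided), and r = 0.25 without the 2 strains farthest from the median of Hamp. In the fit across all genes neither was associated with the other (q = 0.79 and q = 0.703).

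Hamp2 was the most variable member. Its biological coefficient of variation over strains in liver was 1.87, above that of 99.6% of 9499 liver genes, against 0.437 for Hamp (83.5%), 0.352 for Tfr2, 0.355 for Tfrc, 0.259 for Hfe2, 0.246 for Trf, 0.225 for Slc40a1, 0.218 for Ftl1 and 0.207 for Cp (37.8%). Of the 343 windows of 50 bases in the Hamp transcript 56.6% occurred once in the genome, and of the 388 in Hamp2 61.6%, the rest spanning an exon junction or occurring again. The authors aligned to a genome built for each strain and kept reads that aligned to 1 place, and how strain differences between these copies shift the share was not tested.

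Hamp spread 10.9-fold over strains in CPM (68.2 in CC039, median 372, 745 in CC044), Tfr2 6.25-fold (2.49 in CC029, from 4 counts, to 15.6 in CC038, and 3.94-fold without CC029) and Tfrc 6.10-fold (15 in CC044 to 91.6 in CC036). Hfe2 spread 3.01-fold, Trf 2.86-fold, Cp 2.85-fold, Ftl1 2.68-fold and Slc40a1 2.42-fold. The TPM of these genes spread more, for example 7.93-fold for Trf. The library of CC033, lowest in TPM for Trf, Hfe2, Slc40a1, Cp and Ftl1, had 76.5% of its TPM in Rn45s and Lars2. With TPM rescaled without those entries, Trf spread 2.54-fold and its lowest strain was CC015.

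Strain patterns were then compared between tissues of the same mice. A member counted as shared where the correlation over 47 strains of its rank inverse normal values was positive at q of at most 0.1 over all genes above 1 TPM in more than 50% of libraries of both tissues. Between liver and lung this held for 3 of the 8 members tested, beside 13.2% of 8517 genes, namely Hamp2 (r = 0.45, q = 0.022), Tfrc (r = 0.43, q = 0.0329) and Ftl1 (r = 0.43, q = 0.0356). Between liver and kidney it held for 2 of 6, beside 23.1% of 8483 genes, namely Slc40a1 (r = 0.47, q = 0.0103) and Cp (r = 0.47, q = 0.00923). Between lung and kidney it held for 2 of 6, beside 17% of 10057 genes, namely Trf (r = 0.37, q = 0.0723) and Cp (r = 0.37, q = 0.0695). Hamp itself showed r = -0.03 between liver and lung (q = 0.939) and r = 0.12 between liver and kidney (q = 0.607).

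The permutation p of these correlations was 0.0015 for Hamp2 (rho = 0.45, p = 0.002, r = 0.49 without the 2 farthest strains), 0.00252 for Tfrc (rho = 0.37, p = 0.0107, r = 0.38), 0.00279 for Ftl1 (rho = 0.45, p = 0.00176, r = 0.44), 0.00093 for Slc40a1 (rho = 0.48, p = 0.00068, r = 0.48) and 0.00071 for Cp in liver and kidney (rho = 0.46, p = 0.00143, r = 0.47). Between lung and kidney it was 0.011 for Trf (rho = 0.36, p = 0.0142, r = 0.42) and 0.0101 for Cp (rho = 0.38, p = 0.00918, r = 0.49). Without the 11 strains that had a library under 4000000 counts, the calls of Tfrc (r = 0.34, q = 0.238), Ftl1 (r = 0.42, q = 0.115), Trf (r = 0.38, q = 0.138) and Cp in lung and kidney (r = 0.40, q = 0.108) were lost, with r lower for Tfrc and Ftl1 and higher for Trf and Cp than over 47 strains, whereas Hamp2, Slc40a1 and Cp in liver and kidney stayed called. Hamp2 in lung rested on 0 to 12 counts a library. Where 20 or more hepcidin counts were present in lung, the share of Hamp2 was 12 of 20 counts in CC025, 12 of 26 in CC003 and 9 of 21 in CC007, and 0 of 28 in CC011, beside liver shares of 64.1%, 68.6%, 67.6% and 0.672%. The exact intervals of these lung shares were 36.1% to 80.9%, 26.6% to 66.6%, 21.8% to 66.0% and 0% to 12.3%. Other lung libraries lay away from the liver share: CC049 had 8 of 31 counts (25.8%, interval 11.9% to 44.6%) beside 1.10% in liver, CC042 9 of 78 (11.5%, 5.41% to 20.8%) beside 2.06%, CC062 3 of 33 (9.09%, 1.92% to 24.3%) beside 0 of 872 counts, and CC038 8 of 31 (25.8%, 11.9% to 44.6%) beside 57.8%.

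**Figure D4:**
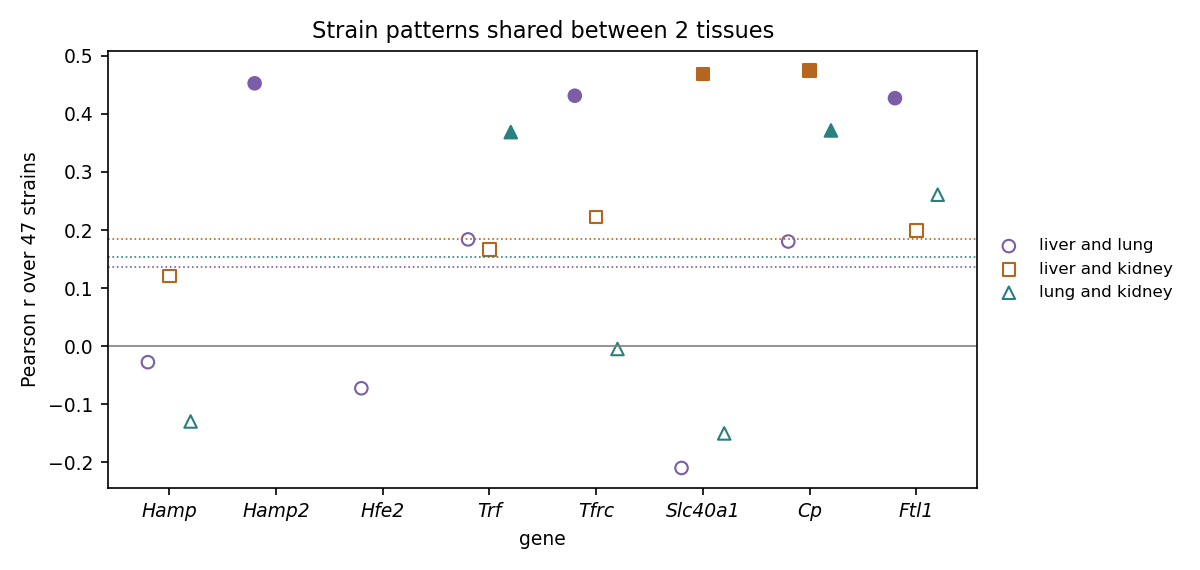
Pearson r over 47 strains of each member's rank inverse normal level between 2 tissues, filled where q is at most 0.1, with dotted lines at the median r of all genes tested in each pair (0.14, 0.18 and 0.15). Hamp2, Tfrc and Ftl1 are filled for liver and lung, Slc40a1 and Cp for liver and kidney, and Trf and Cp for lung and kidney.

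Within liver, few genes were called with either hepcidin gene, though 714 of 9498 had an unadjusted p under 0.05 with Hamp and 807 with Hamp2 (limma-voom). With Hamp as the covariate 1 of 9498 genes was called (0.0105%), Ces4a, a carboxylesterase, at a slope of -1.21 log2 CPM per log2 CPM of Hamp (q = 0.0333), a gene named after its value was seen. Its call was lost without the 2 strains farthest from the median of Hamp (q = 0.291), at a slope of -1.39. With Hamp2 it was 3 genes (0.0316%), Impg2, Nudt19 and Ppp1r14a, with Tfr2 1 gene (0.0105%), Cyp3a13, and with Trf 0 genes (0%, limma-voom, 969 genes at an unadjusted p under 0.05, and 1 called with rank inverse normal values). None of 14 hepcidin control genes tested was called with Hamp. The smallest q among them were those of Smad7 (slope 0.31, q = 0.551), Id1 (0.50, q = 0.593) and Smad1 (0.10, q = 0.615). None of the 17 acute phase genes tested was called either, the smallest q being that of Saa3 (0.87, q = 0.593). With 0.0105% of all genes called, the lack of calls does not set these lists apart from other genes. The genes most like Hamp over strains were Nr5a2 (rho = 0.51), Btf3 (0.49) and Zyx (0.49), and the least like it was Ube2f (rho = -0.55), none of them called. The most like Hamp2 were Sesn1 (0.58), Nr1d2 (0.52) and Impg2 (0.52), and the least like it Rbm42 (-0.59).

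Hfe2 in liver was associated with 155 genes (1.63%, 73 positive and 82 negative). Most alike were the tight junction gene Cldn1 (rho = 0.65, permutation p = 2e-05, r = 0.62, q = 0.00669), the manganese exporter Slc30a10 (rho = 0.61, q = 0.0191) and Grb14 (rho = 0.61, q = 0.0101), and least alike was the clock gene Per2 (rho = -0.64, permutation p = 1e-05, the smallest these permutations can give, r = -0.60, q = 0.0114). Among 14 hepcidin control genes 1 was called, Bmp6, which was lower where Hfe2 was higher (slope -0.57 ± 0.14, rho = -0.35, q = 0.0417). The count fell to 51 without the 2 strains farthest from the median of Hfe2 and to 42 without the 11 strains with a shallow library, and Bmp6, Cldn1, Grb14 and Per2 stayed called in both.

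Cp in liver went with acute phase genes. Of 17 tested, 6 were positively associated, beside 0.137% of 9498 genes, and 0 negatively: the fibrinogen chains Fgb (slope 0.98 ± 0.14, rho = 0.64, q = 2.35e-05), Fgg (0.94 ± 0.13, rho = 0.63, q = 3.35e-05) and Fga (0.82 ± 0.18, q = 0.0591), the siderophore binder Lcn2 (5.96 ± 0.87, rho = 0.36, q = 3.35e-05), and the serum amyloids Saa2 (4.43 ± 1.01, q = 0.0647) and Saa1 (3.49 ± 0.83, q = 0.079). Without the 2 strains farthest from the median of Cp 2 genes were called instead of 18, and the calls were lost for Fga at a slope of 0.83 (q = 0.613), close to that over all strains, and for Lcn2, Saa2 and Saa1 at lower slopes of 4.26 (q = 0.613), 2.51 (q = 0.913) and 2.26 (q = 0.858), while Fgb and Fgg passed in every setting tried. For Fgb the correlation was r = 0.74 (permutation p = 1e-05, the smallest possible) and r = 0.63 without those strains.

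Slc40a1 in liver was associated with 19 genes (0.2%), least like it Nt5dc2 (rho = -0.63, q = 0.00138) and most like it 2010107G23Rik (rho = 0.66, q = 0.0609), Hnmt (0.59) and Parp12 (0.57, q = 0.0577). None of 10 macrophage markers reached the threshold with it, the smallest q being that of the Kupffer cell marker Clec4f (slope 0.42 ± 0.21, rho = 0.37, q = 0.397). Most like Trf was Gc, the vitamin D binding protein (rho = 0.59, q = 0.111). Ftl1 in liver was associated with 107 genes (1.13%), but with 0 without the 2 farthest strains and 2 without the shallow ones. In kidney Tfrc was associated with 694 of 11208 genes (6.19%), which fell to 137 and 31 in those settings, and of its 3 most alike genes the proton pump subunit Atp6v1a (rho = 0.70, q = 0.000809) and the peroxisomal Gnpat (rho = 0.65, q = 0.00119) stayed called in every setting, and Epg5 (rho = 0.66, q = 0.0176) did not without the shallow libraries (q = 0.122).

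Among pairs of members, Slc40a1 in kidney rose with Ftl1 (slope 0.38, r = 0.50, permutation p = 0.00044, rho = 0.53, p = 0.00025, r = 0.48 without the 2 farthest strains, q = 0.00759 with Ftl1 as the covariate and q = 0.132 with Slc40a1). Ftl1 was the less specific side of this pair, since 8.64% of 11208 kidney genes were positively associated with it. In liver Trf and Ftl1 showed r = 0.53 (permutation p = 0.00016, rho = 0.55, p = 0.00011, r = 0.43 without the 2 farthest strains), with q = 0.0656 and q = 0.133. The call ended without those strains (q = 0.297) and without strains under 4000000 counts (q = 0.426). It also ended with the share of Rn45s and Lars2 as covariate (q = 0.104), a setting chosen after seeing the data. Trf and Slc40a1 in liver showed r = 0.45 (permutation p = 0.00148, rho = 0.47, p = 0.00093, r = 0.41) and were not called (q = 0.247 and q = 0.14).

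**Figure D5:**
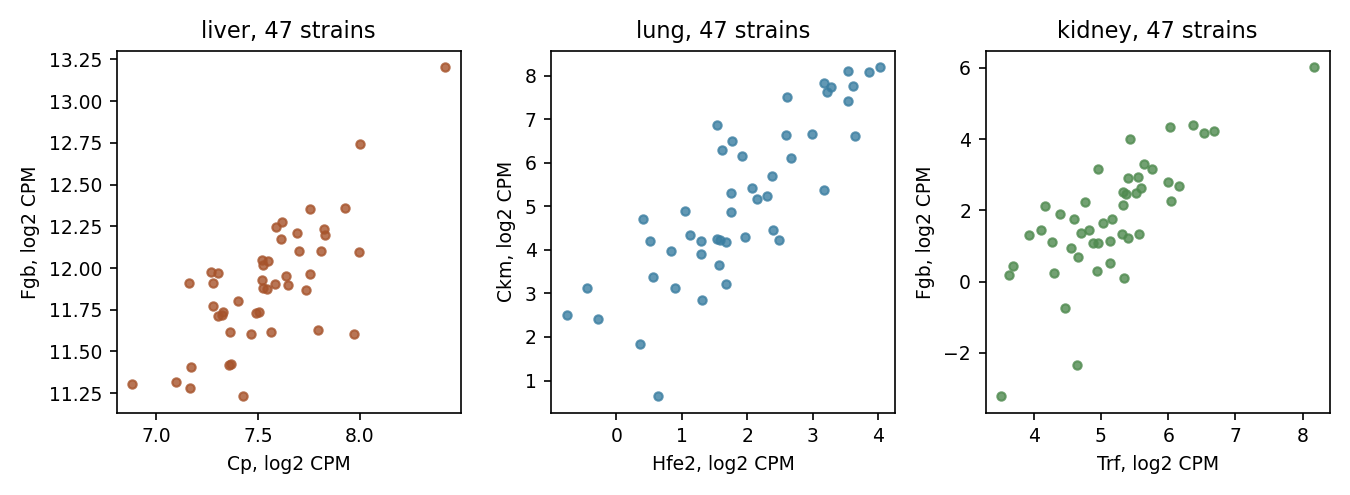
Log2 CPM of Fgb against Cp in liver, of Ckm against Hfe2 in lung and of Fgb against Trf in kidney (member on the horizontal axis), 1 point per strain (47 in each panel). The points rise together in each panel (r = 0.74, 0.83 and 0.76).

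Outside the liver, Hfe2 in lung and Trf and Hamp in kidney moved with markers of other tissue. Hfe2 in lung, which is known from skeletal and heart muscle as well as liver, spread 32.7-fold in CPM (0.322 in CC024, median 2.25, 10.5 in CC040). It was positively associated with 5 of 5 skeletal muscle and 5 of 5 cardiac muscle markers tested there, beside 5.12% of 12872 genes, led by Ckm (slope 1.47 ± 0.13, r = 0.83, rho = 0.85, permutation p = 1e-05, r = 0.82 without the 2 farthest strains, q = 4.43e-12), Mylpf (2.33 ± 0.26, q = 2.19e-09) and Acta1 (2.05 ± 0.25, q = 1.39e-08). All 10 stayed called in every setting tried. In the lung libraries the summed CPM of the skeletal markers was 2.61 to 747 and of the cardiac ones 106 to 869, and no marker had a median of 0. The part of muscle RNA in the Hfe2 level of lung was not tested.

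Trf and Hamp in kidney moved with liver transcripts. Trf was at 9.91 CPM in CC061, 31.2 in the median library and 253 in CC027, which also had the highest share of Rn45s and Lars2 in kidney. Trf spread 25.6-fold, and 9.24-fold without CC027. It was positively associated with 4 of 6 hepatocyte markers and 5 of 10 acute phase genes, beside 0.428% of 11208 genes, among them Fgb (slope 1.57 ± 0.14, r = 0.76, rho = 0.75, q = 2.3e-11), Apoa1 (1.46 ± 0.15, q = 2.84e-10), Tat (1.65 ± 0.17, q = 3.98e-10) and Hpx (1.61 ± 0.17, q = 7.73e-10). The permutation p for Fgb was 1e-05, and r was 0.68 without the 2 farthest strains. Fgg was called in 2 of 6 other settings and Serpina3n in 3 of 6. Hamp in kidney, at 0 to 19 counts, followed albumin (log2(CPM + 0.1), r = 0.81, rho = 0.79, permutation p = 1e-05, r = 0.80 without the 2 farthest strains). In lung the same relation was r = 0.26 (permutation p = 0.0813, rho = 0.21, p = 0.152). There 0 of 6 hepatocyte markers tested were called with Hamp or with Trf. With these covariates 792 and 885 of 12872 lung genes had an unadjusted p under 0.05 (limma-voom). The share of all lung genes called with either is not given here, so the 0 of 6 is not read as a difference from kidney. Per 1000 counts of albumin, pooled over 47 libraries, Hamp had 5.72 counts in kidney, 4.77 in liver and 21.7 in lung, and Trf 626 in kidney, 368 in liver and 4521 in lung. The part of liver RNA in these kidney levels was not tested.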

How the data were processed

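Whole liver, lung and kidney of 47 strains were sequenced in 50-base single-end reads. The authors aligned them with STAR 2.5.3a to mm9 (Build37) genomes modified for each strain, kept uniquely aligned reads and deposited RSEM gene tables, whose expected counts, TPM and FPKM are per the file headers. FPKM was not used. Expected counts were rounded (25 values were not whole). Members and gene lists were chosen with earlier results of these data known.

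Tissues were compared by limma-voom (limma 3.58.1, edgeR 4.0.16, R 4.3.3) with TMM, strain as a block, genes over 1 CPM in at least 30% of libraries and Benjamini-Hochberg q. Samples of a strain came from 1 mouse: their deviations from the tissue means correlated at a median of 0.17, 0.17 and 0.21 (liver and lung, liver and kidney, lung and kidney). Associations used limma-voom within a tissue with the member's log2 CPM (prior count 1) as covariate. Correlations used 100000 permutations (scipy), two-sided. Tested on simulated data without strain effects, 186 of 186 genes changed 4-fold that passed the filter were recovered between liver and lung (11414 genes tested, 0 false calls). In the simulated association fit 200 of 200 genes set to change 2-fold per unit of the covariate were recovered. It also gave 23 false calls among 12127 genes. Named genes were all members, the 3 genes of a list with the largest called difference or smallest q, and the 3 most and 1 least alike by rho. The study's batch term is absent from the labels, so batches could not be separated. P-values measure the spread between single mice. Coordinates and sequences come from NCBIM37 with GENCODE vM1.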

Additional observations from a re-analysis of the deposited data

How the results depend on the processing

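Without the strain block that pairs the tissues of 1 mouse, 8, 9 and 5 members were called, the counts found with it, and Hamp2 was higher in liver by 6.32 and 6.73. Dropping the fold threshold raised the lung and kidney count to 8. Total counts moved the median log2 fold change of all genes to -1.44, -0.95 and 0.46, and log2(TPM + 1) to -1.21, -0.72 and 0.47. Ireb2 reversed between liver and lung by total counts (-0.11) and on log2(TPM + 1) and log2(TPM + 0.1) (-0.22 and -0.22). Among the alternative fold changes of members and named genes 921 kept their sign and their state, called or not called. Of the rest, 11 gained a call, 11 lost it and the 3 of Ireb2 reversed.

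Shared strain patterns rested on the scaling. On TPM without TMM 1 member was shared between liver and lung, 1 between liver and kidney and 0 between lung and kidney, and without strains under 4000000 counts 1 and 0 in the pairs with lung. With the share of Rn45s and Lars2 regressed out, an alternative chosen after seeing the data, 1 was shared between lung and kidney. Correlations near 0 changed sign: on TPM without TMM Cp (-0.00046), Trf (-0.0035), Hamp (0.049) and Hfe2 (0.034) between liver and lung, and Tfrc between lung and kidney on log2 CPM (0.012), Spearman (0.022) and those residuals (0.015). The cause was not tested.

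Counts of associated genes moved by over 1.5 times as follows. With rank inverse normal values, Hamp had 2, Trf 1, Tfr2 0 and Cp 6. Without the 2 farthest strains, Hfe2 in liver had 51, Tfr2 0, Cp 2, Ftl1 in liver 0, Tfrc 137 and Ftl1 in kidney 1123. Without strains under 4000000 counts, Hamp2 had 0, Hfe2 42, Tfr2 0, Slc40a1 4, Cp 9, Ftl1 2 and Tfrc 31. With Rn45s and Lars2 as covariate (chosen after seeing the data), Hamp2 and Tfr2 had 0, Slc40a1 50, Cp 11, Ftl1 in liver 28 and Tfrc 427. With total counts as covariate Hamp2 had 0 and Ftl1 172, and with DESeq2 size factors Slc40a1 had 46. Fewer than 20 counts in most lung and kidney libraries limit Hamp2, Tfr2 and Hamp there. Leaving out the lowest or the highest library, chosen after seeing the data, moved the spread of Tfr2 in liver from 6.25-fold to 3.94-fold and that of no other liver member by over 1.5 times. Outside liver, dropping the highest library moved Trf in kidney from 25.6-fold to 9.24-fold, Hamp in lung from 56.3-fold to 22.5-fold and Cp in kidney from 9.37-fold to 4.11-fold.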
